A study of Mus musculus with 14 samples.

Results

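The miR-99b/let-7e/miR-125a cluster is a group of 3 microRNA (miRNA) hairpins that lie next to each other on 1 strand of the mouse genome and are transcribed as 1 primary RNA. Its members here are the table entries named for let-7e, miR-99b and miR-125a at their annotated start, which are 6 of 534 such entries, the 5p and the 3p arm of each hairpin. The 3 arms that carry nearly all of the signal are mmu-let-7e-5p, mmu-mir-99b-5p and mmu-mir-125a-5p. A further 20 entries of the same hairpins end in a plus or minus sign and a number. The table does not define this ending, which is read here as a start that lies that many bases downstream or upstream.

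A miRNA hairpin is cut by Drosha and Dicer into a short duplex, and the strand that is kept guides Argonaute to target mRNAs mainly through its seed, the bases 2 to 8 from its 5′ end. miRNAs with the same seed are grouped as a family because they can pair with the same sites. let-7 is the family known for rising as cells leave a proliferating or embryonic state, miR-125 includes the vertebrate relatives of worm lin-4, and miR-99 and miR-100 form a small family with many reported roles in growth control. Clusters that hold 1 member of each family are an old arrangement in animal genomes, and the mouse has paralogous ones with miR-99a, let-7c and miR-125b and with miR-100, let-7a and miR-125b.

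The 5p arms and their seed relatives are shown because the seed and the few bases outside it decide what can be told apart in the measurements below. Sequences are from RefSeq (GRCm38.p6), 5′ to 3′, with the seed in capitals.
let-7e-5p: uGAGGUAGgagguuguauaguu
let-7a-5p: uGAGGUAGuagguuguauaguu
miR-99b-5p: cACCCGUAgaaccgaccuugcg
miR-99a-5p: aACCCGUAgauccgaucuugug
miR-100-5p: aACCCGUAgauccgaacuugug
miR-125a-5p: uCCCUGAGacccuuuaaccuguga
miR-125b-5p: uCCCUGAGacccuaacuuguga
miR-351-5p: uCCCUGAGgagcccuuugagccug
With positions counted from 1 at the 5′ end of the cluster member, let-7e-5p and let-7a-5p differ by a lone substitution, G9U. miR-99b-5p differs from miR-99a-5p by C1A, A11U, C16U and C21U, and from miR-100-5p by C1A, A11U, C16A and C21U. miR-125a-5p and miR-351-5p part at A9G, just past the seed. The names of 436 of the 534 annotated entries matched a RefSeq sequence.

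The mature arms lie on the plus strand of chromosome 17 in GRCm38.p6. The arms of miR-99b span 17830194 to 17830253, those of let-7e 17830366 to 17830432 and those of miR-125a 17830817 to 17830876, so the whole cluster covers 683 bases with gaps of 112 and 384 bases between the hairpins' arms. All 3 lie within Spaca6, a sperm acrosome gene on the same strand. In GENCODE M21 the arms of miR-99b and let-7e fall in introns of the 2 Spaca6 transcripts (of 16) that span them, and those of miR-125a lie inside 3 transcripts and overlap an exon of 1. The submitters' processing notes name mm9, and the deposited table holds no coordinates, so these positions only describe the locus. The hairpins of let-7e and miR-125a, with both mature arms in capitals, show how close the arms sit to the loop.
let-7e hairpin: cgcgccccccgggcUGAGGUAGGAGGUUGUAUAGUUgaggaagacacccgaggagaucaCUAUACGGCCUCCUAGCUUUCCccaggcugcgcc
miR-125a hairpin: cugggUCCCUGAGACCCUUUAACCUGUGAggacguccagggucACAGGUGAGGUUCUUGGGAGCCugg

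The libraries are small RNA from small intestine of C57BL/6J mice, labelled Sox9eGFP, where a green reporter follows the transcription factor Sox9. Cells were sorted by fluorescence into High, Low, Sublow and Negative populations (3 libraries each), and 2 libraries came from Non-sorted cells. The labels give no age, sex, allele or number of animals for any group. Nothing says that replicates are separate mice, so p-values here measure the spread between these libraries. In this reporter line High cells are known to be rich in enteroendocrine cells, Low cells in crypt base stem cells, Sublow cells in dividing progenitors, and Negative cells in differentiated villus types.

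Values are RPM, reads assigned to miRNA entries scaled to a library total of 1e+06. Depth was estimated at 1.89 to 16.4 M reads per library (M, 1e+06, with a median of 5.0). By this estimate the smallest listed value corresponds to 9.99 to 10.9 reads, so an entry listed at 0 would have had fewer than about 10 reads. The search allowed only 7 to 14 reads for the smallest value, and counts were not recovered, so all read numbers given are rough. The estimate put 350 to 42345 reads behind a value of let-7e-5p, 57.0 to 6343 behind one of miR-99b-5p and 21.0 to 4927 behind one of miR-125a-5p. Epithelial miR-200 family members (5 of 5 listed) summed to 24800 to 72931 RPM over the sorted libraries, while miR-451a, the defining erythroid miRNA, was listed at 0 in all 14. The other erythroid miRNAs looked at were miR-486-5p, at 7.39 to 38.3 RPM over all 14, and miR-144-5p, listed only in Sublow 3 (1.67). A set of 7 libraries (High 2, Low 2, Sublow 2, Negative 1, Negative 2 and both Non-sorted) lists the embryonic stem cell miRNA miR-295-3p at 395 to 928 RPM and the other 7 list it at 0. The results below were therefore also run with and without these libraries.

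let-7e-5p, a let-7 family member and the most abundant product of the cluster, was highest in High cells and stepped down with each dimmer population. It was listed at 3154, 3026 and 2923 RPM in the High libraries, 2274, 1873 and 1686 in Low, 418, 369.9 and 309.7 in Sublow, 68.4, 75.9 and 49.5 in Negative, and 360.0 and 200.4 in Non-sorted. No library of a sorted population overlapped another population. The share of all entries that separate in this way was not counted, here or for the other arms below. Non-sorted 1 (360.0) stood among the Sublow libraries and Non-sorted 2 (200.4) below all of them. As means, High (3034 ± 116, SD, n = 3) was 1.56 times Low (1945 ± 300.3, n = 3), Low was 5.32 times Sublow (366 ± 54.2, n = 3) and Sublow was 5.66 times Negative (64.6 ± 13.6, n = 3). From end to end the ratio of means was 47.0. In bulk libraries such as these, fewer cells that make a miRNA and less of it per cell cannot be told apart.

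Differences were tested with limma on log2(RPM + 1) over 588 entries, with p-values adjusted by the Benjamini-Hochberg method over all of them and a threshold of 0.05. This scale understates changes of low values. Over the 4 sorted populations let-7e-5p differed with an adjusted p of 2.61e-09 (F = 261), and all 3 of the 5p arms passed this test, as did 72.3% of all entries tested. The log2 difference of let-7e-5p was 2.41 (SE 0.22, adjusted p = 1.17e-05) for Low against Sublow and 2.49 (SE 0.22, adjusted p = 7.27e-06) for Sublow against Negative. It was 5.55 (SE 0.22, adjusted p = 7.78e-10) for High against Negative. The step from Low to Sublow was thus about as large on the log2 scale as the step from Sublow to Negative, and both were far wider than the spread between libraries.

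miR-99b-5p, of the miR-99 and miR-100 family, followed the same order at a lower level. Its values were 472, 461 and 359 RPM in High, 335, 288 and 228 in Low, 57.9, 40.2 and 41.5 in Sublow, 18.8, 18.9 and 3.56 in Negative, and 57.7 and 37.9 in Non-sorted. The sorted populations did not overlap, but within Negative the third library stood far below the others. The means were 431 ± 62.2, 284 ± 53.2, 46.5 ± 9.85 and 13.8 ± 8.83 (SD, n = 3 each). Over the sorted populations the adjusted p was 3.74e-06 (F = 51.6, limma). Low was above Sublow by 2.58 on the log2 scale (SE 0.47, adjusted p = 0.00118) and Sublow above Negative by 1.95 (SE 0.47, adjusted p = 0.00626, limma). Without Negative 3 the last difference was 1.24 and still passed. Among only the 7 libraries that list miR-295-3p, a set that includes Negative 1 and Negative 2 but not Negative 3, it was 1.05 and did not pass (adjusted p = 0.0596, limma).

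miR-125a-5p, the lin-4 relative of the cluster, was the scarcest of the 3 and had the widest range. It was listed at 367, 346 and 315 RPM in High, 274, 144 and 229.6 in Low, 42.5, 25.2 and 28.6 in Sublow, 4.11, 4.48 and 4.75 in Negative, and 32.2 and 24.3 in Non-sorted. Again no sorted population overlapped another, and the 3 Negative libraries lay close together although they rest on few reads. The means were 342 ± 26.4, 216 ± 66.4, 32.1 ± 9.19 and 4.45 ± 0.321 (SD, n = 3 each), so the mean in High was 77.0 times that in Negative. The adjusted p over the sorted populations was 4.79e-09 (F = 223, limma). The log2 difference was 2.70 (SE 0.26, adjusted p = 1.33e-05) for Low against Sublow, 2.57 (SE 0.26, adjusted p = 1.42e-05) for Sublow against Negative and 5.98 (SE 0.26, adjusted p = 1.43e-09) for High against Negative, by limma.

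**Figure D1:**
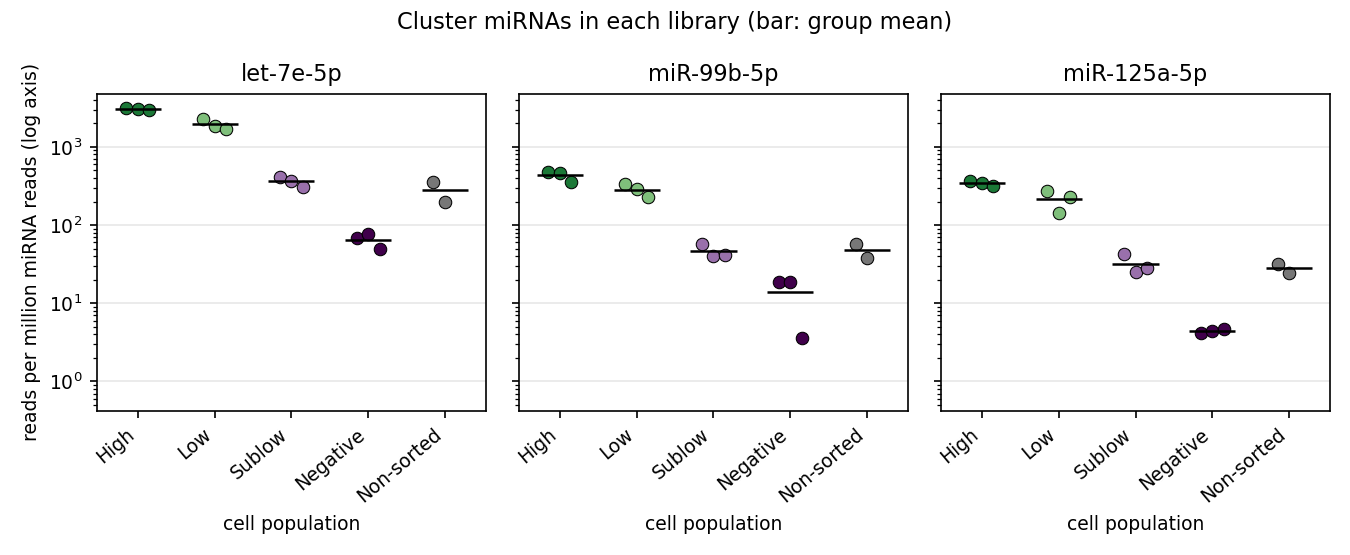
The value of each cluster 5p arm in each library, in RPM on a log axis, by cell population. Points are libraries in the order of their replicate number and bars are group means. let-7e-5p falls from a mean of 3034 in High to 64.6 in Negative, and miR-99b-5p in Negative has libraries at 18.8, 18.9 and 3.56.

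Between High and Low the cluster differed least, and 1 of its 3 5p arms was called. let-7e-5p was higher in High by 0.65 (SE 0.22, 95% interval 0.17 to 1.14, adjusted p = 0.0465, limma). miR-125a-5p was higher by 0.71 (SE 0.26, interval 0.15 to 1.28, adjusted p = 0.0614) and miR-99b-5p by 0.61 (SE 0.47, interval −0.42 to 1.63, adjusted p = 0.373), neither passing. The 3 estimates were alike in size. Of all entries tested, 7.99% were called higher in High. let-7e-5p lost its call when any 1 of 9 libraries was left out (all 3 High, Low 2, Low 3, all 3 Sublow, Negative 1), with differences of 0.56 to 0.68. miR-125a-5p passed without Low 1 (0.91) or Sublow 1 (0.71), and fell to 0.44 without Low 2. After median-ratio rescaling of the libraries miR-125a-5p was at 1.03 and passed (adjusted p = 0.0123).

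In the wider comparisons all 3 of the 5p arms were called higher in the brighter population. This was so for High against Sublow, where 28.1% of all entries were called higher in High, and for High against Negative, where 43.9% were. It was also so for Low against Sublow (24.3% of all entries), Low against Negative (49.5%) and Sublow against Negative (26.9%). Against Sublow, High was higher by 3.06 in let-7e-5p, 3.19 in miR-99b-5p and 3.41 in miR-125a-5p, where the median of all entries tested was 0.07. Against Negative, Low was higher by 4.90, 4.53 and 5.27 in the same order, beside a median of 0.90 over all entries. These comparisons share libraries, so their counts are not independent of each other.

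The background of these comparisons depends on how libraries are scaled, while the cluster's wide differences held. Median-ratio rescaling moves all entries by 0.33 in High against Low, −0.40 in Low against Sublow and −0.48 in Sublow against Negative. It also moves them by −0.07 in High against Sublow, −0.55 in High against Negative and −0.88 in Low against Negative. Entries called higher and lower over the whole table then went from 47 and 118 to 80 and 68 in High against Low, and from 143 and 61 to 66 and 86 in Low against Sublow. In Sublow against Negative they went from 158 and 51 to 70 and 77, in Low against Negative from 291 and 97 to 130 and 141, and in High against Negative from 258 and 132 to 185 and 177. let-7e-5p was then higher in Low than in Sublow by 2.01 and in Sublow than in Negative by 2.02, miR-99b-5p by 2.19 and 1.51, and miR-125a-5p by 2.30 and 2.16, each still past the threshold (limma).

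Non-sorted cells, which hold all populations, were above Negative cells by 2.06 in let-7e-5p (SE 0.25, adjusted p = 0.000168) and by 2.41 in miR-125a-5p (SE 0.29, adjusted p = 0.000168, limma). miR-99b-5p was above by 1.98 but with a wider error (SE 0.52, adjusted p = 0.0666, limma). It passed when any 1 of the 3 Negative libraries was left out, at 2.33, 2.33 and 1.27. That makes 2 of 3 arms called, where 3.74% of all entries were called higher in Non-sorted.

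**Figure D2:**
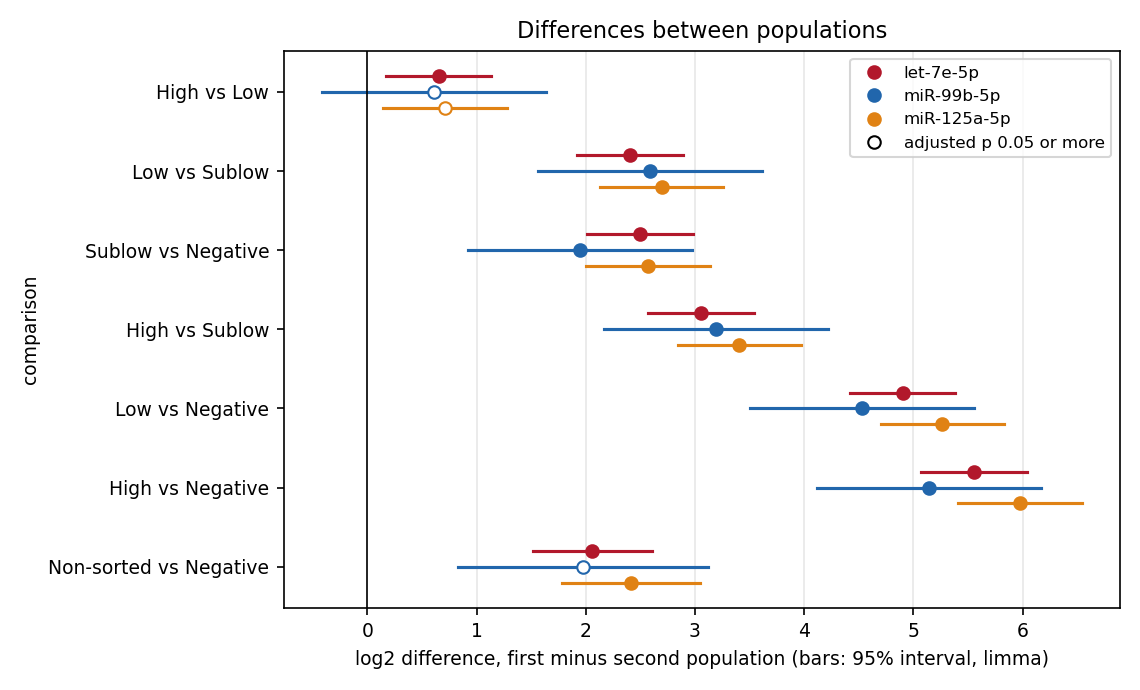
Log2 differences between populations (first minus second) of the 3 cluster 5p arms, with 95% intervals from limma; open symbols did not pass the adjusted threshold. The step between High and Low (0.61 to 0.71) is small beside the steps from Low to Sublow (2.41 to 2.70) and from Sublow to Negative (1.95 to 2.57).

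let-7e-5p was the largest product of the 1 primary transcript over a wide range of total output. Summed, the 3 arms gave 3597 to 3993 RPM in High, 2145 to 2883 in Low, 380 to 518 in Sublow, 57.8 to 99.3 in Negative and 263 to 450 in Non-sorted. As a mean share of all miRNA reads this is 0.381% in High and 0.00828% in Negative. let-7e-5p made up 74.9 to 85.6% of the summed RPM in every library, miR-99b-5p 6.16 to 20.6% and miR-125a-5p 4.50 to 10.7%. Both ends of the range of miR-99b-5p were in Negative. Counts of reads compare different miRNAs only roughly, since ligation efficiency differs between sequences.

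Ratios within a library do not depend on how the library was scaled. Ratios, shares of a family and shares of shifted starts made 9 measures, each tested over the 4 sorted populations with an exact permutation test of F over all 369600 arrangements of the 12 libraries, and adjusted over the 9. The log2 ratio of let-7e-5p to miR-99b-5p averaged 2.83 in High, 2.78 in Low, 2.99 in Sublow and 2.56 in Negative (exact permutation p = 0.821, adjusted p = 0.821). That of let-7e-5p to miR-125a-5p was 3.15, 3.21, 3.54 and 3.84 (exact permutation p = 0.112, adjusted p = 0.144). That of miR-99b-5p to miR-125a-5p was 0.32, 0.43, 0.55 and 1.28 (exact permutation p = 0.454, adjusted p = 0.511). None passed, which does not show that the ratios are constant. The Negative group decided how close they came. Its log2 ratios of let-7e-5p to miR-99b-5p were 1.87, 2.0 and 3.80, so the first pair lay below every other sorted library and the third above every one. Without Negative 3 the ratio of let-7e-5p to miR-99b-5p passed (adjusted p = 0.0169, exact permutation test), as did that of miR-99b-5p to miR-125a-5p (adjusted p = 0.0291, exact permutation test). Negative 1 and Negative 2 are also the Negative libraries that list miR-295-3p and that the labels put on lane 6, whereas Negative 3 is on lane 5. Lane, miR-295-3p and miR-99b-5p therefore cannot be told apart within Negative.

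The 3p arms, the strand less often kept, ran in the same order of group means at lower levels. miR-99b-3p was listed at 41.3, 37.6 and 41.8 RPM in High, 30.7, 21.3 and 42.4 in Low, 11.9, 7.73 and 10.1 in Sublow, and 0 in all 3 Negative libraries. miR-125a-3p was at 49.3, 30.7 and 39.1 in High, 36.8, 17.6 and 22.9 in Low, 2.01, 3.53 and 1.59 in Sublow, and 0 in all 3 Negative libraries. High and Low overlapped for both, and neither overlapped Sublow. let-7e-3p was above 0 in only 3 libraries (3.58 in High 1, 2.96 in Low 3 and 1.52 in Sublow 3) and was too low to test, so 5 of the 6 annotated entries were tested. The tested 3p arms passed the filter of 10 RPM in 3 libraries mainly through their High and Low values, and miR-125a-3p only through them. Their calls against Sublow and Negative are therefore given as a description only, without a count, and beside their values with no filter.

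miR-125a-3p was higher in High than in Sublow by 3.61 (log2; adjusted p = 0.000188, with no filter 0.000379, limma) and in Low than in Sublow by 2.97 (adjusted p = 0.0013, and 0.00315 with no filter, limma). miR-99b-3p was higher in High than in Sublow by 1.94 (adjusted p = 0.0209, and 0.0468 with no filter, limma). That call was lost without High 1 (1.92) or Sublow 2 (1.78), with a lane term (adjusted p = 0.352, limma) and with a pseudocount of 0.1 (adjusted p = 0.171, limma). In Low against Sublow it was at 1.54 and did not pass (adjusted p = 0.0714, and 0.167 with no filter, limma). That comparison passed at 1.54 without either Non-sorted library, at 1.63 without the 7 libraries that list miR-295-3p and at 1.03 with a pseudocount of 10. Against Negative, which is listed at 0, no fold is given. The adjusted p of Sublow against Negative was 0.000975 for miR-99b-3p (0.00157 with no filter) and 0.0289 for miR-125a-3p (limma). The latter was lost without Sublow 1, Sublow 2 or any of the Negative libraries, at an adjusted p of up to 0.0889. It was also lost with a pseudocount of 10 (0.322), quantile normalization (0.101), the 7 libraries that list miR-295-3p left out (0.0852), no filter (0.0842) and median-ratio rescaling (0.0513).

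The 5p arm was in excess in every library that listed both arms. For miR-99b the ratio of 5p to 3p RPM was 8.61 to 12.3 in High, 5.39 to 13.5 in Low and 4.11 to 5.20 in Sublow. For miR-125a it was 7.44 to 11.3 in High, 7.45 to 10.02 in Low and 7.13 to 21.2 in Sublow. For let-7e the 3 libraries that list its 3p arm gave ratios of 881, 570 and 204, so the arm preference of let-7e was the most one-sided of the 3 hairpins in those libraries. No test of arm ratios was run, because the 3p arms are at 0 in Negative.

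Where a miRNA starts sets its seed, so the shifted entries of let-7e-5p are shown with the seed that each start would give. The sequences were read from the let-7e hairpin above, with the seed in capitals and the 3′ end kept as annotated.
let-7e-5p, start −1: cUGAGGUAggagguuguauaguu
let-7e-5p, start 0: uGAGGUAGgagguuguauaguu
let-7e-5p, start +1: gAGGUAGGagguuguauaguu
Of the 20 shifted entries of the cluster, 5 are listed at 0 in every library and 3 were tested, namely let-7e-5p at +1 and at −1 and miR-99b-5p at +1.

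The +1 form of let-7e-5p was listed mostly in High and Low. It was at 58.5, 67.2 and 53.2 RPM in High, 40.2, 50.5 and 26.1 in Low, 9.6, 0 and 5.54 in Sublow, and 0, 0 and 1.98 in Negative. miR-99b-5p at +1 was at 7.93 to 12.5 in High, 4.96 to 11.2 in Low, 0 to 2.62 in Sublow and 0 in Negative. Both reached 10 RPM only in High and Low libraries and so entered the table of tested entries through the populations where they are high. No test of them is given.

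The −1 form of let-7e-5p did not have the wide range of the annotated form. It was at 15.4, 9.81 and 15.9 RPM in High, 21.7, 26.5 and 25.7 in Low, 16.0, 10.9 and 15.1 in Sublow, 6.91, 5.97 and 9.35 in Negative, and 12.8 and 6.04 in Non-sorted. Low was the highest population, and High and Sublow overlapped. High against Sublow was −0.04 on the log2 scale (95% interval −0.75 to 0.67, adjusted p = 0.949, limma), where the annotated form was 3.06. High against Low was −0.83 (adjusted p = 0.0816, limma). The −1 form did differ over the 4 sorted populations (adjusted p = 0.00596, limma). Low was above Negative by 1.62 (adjusted p = 0.000916, limma), and by 0.81 after median-ratio rescaling (adjusted p = 0.0499, limma). High was above Negative by 0.80 (adjusted p = 0.0481, limma), which did not pass after that rescaling (0.30, adjusted p = 0.421, limma). As a percentage of the annotated form, the −1 form was 0.324 to 0.543 in High, 0.955 to 1.53 in Low, 2.94 to 4.87 in Sublow and 7.86 to 18.9 in Negative. The −1 form of let-7a-5p, by contrast with that of let-7e-5p, was a nearly fixed 0.0925 to 0.195% of its own annotated form in all 14 libraries. The −1 form of let-7e-5p was 42.8 to 94.5% of the −1 form of let-7a-5p in every library, while the annotated let-7e-5p was 0.628 to 23.9% of the annotated let-7a-5p. The authors' mismatch settings are not given here, and whether reads of other let-7 members enter this entry was not tested.

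Taking all shifted entries named for let-7e-5p together, they were 2.45% of the RPM listed under its name in High, 3.23% in Low, 4.96% in Sublow and 11.7% in Negative (exact permutation p = 0.00104, adjusted p = 0.00468). The adjusted p rose above 0.05 without High 1, High 2, Low 3 or Sublow 3, to at most 0.0606. This share includes the −1 form, whose source was not tested. Its +1 part is listed at 0 in Sublow 2, Negative 1 and Negative 2, where a few reads may be missing. Shifted entries were 3.11, 2.93, 1.44 and 0% of miR-99b-5p (adjusted p = 0.0955, exact permutation test, and 0.0234 without Sublow 1). They were 7.32, 4.46, 2.71 and 0% of miR-125a-5p (adjusted p = 0.0937, exact permutation test, and 0.0498 without Low 1). For these arms a share of 0 cannot be told apart from shifted entries with fewer than about 10 reads.

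**Figure D3:**
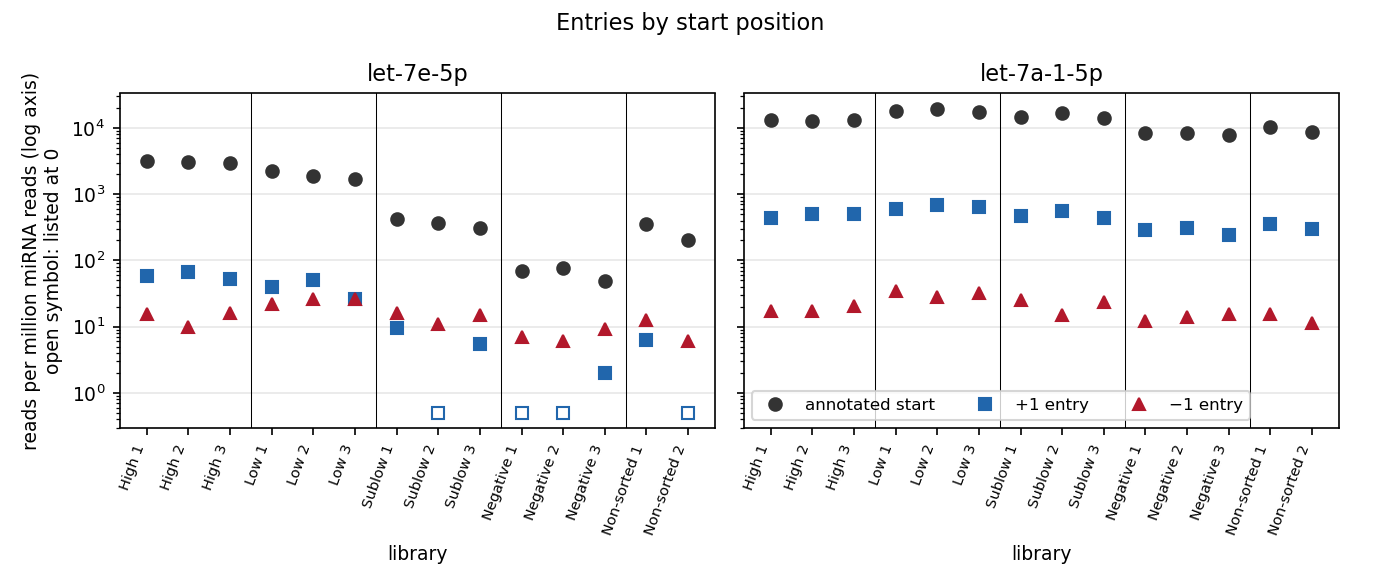
Entries of let-7e-5p (left) and let-7a-5p (right) at the annotated start, at +1 and at −1 in each library, in RPM on a log axis, with open symbols for entries listed at 0. The annotated and +1 forms of let-7e-5p fall from High to Negative. Its −1 form lies between 5.97 and 26.5 in all 14 libraries, and the −1 form of let-7a-5p between 11.5 and 34.7. Both −1 forms are highest in Low and lower in Negative.

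let-7e-5p was a minor part of its own family, and its share fell with the sort. It held 1.5, 1.66 and 1.33% of all reads with the let-7 seed in High, 0.992, 0.847 and 0.694% in Low, 0.255, 0.208 and 0.194% in Sublow and 0.0426 to 0.0650% in Negative. The populations did not overlap (exact permutation p = 6.49e-05, the smallest this design can give, adjusted p = 0.000584). Leaving out any 1 sorted library kept it past the threshold. The other 8 members (let-7a, let-7b, let-7c, let-7d, let-7f, let-7g, let-7i and miR-98) reached a mean of up to 85826 RPM in High (let-7b-5p) and are described next to it.

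In High against Low, 0 of the other 8 let-7 members were higher and 6 were lower, with a median log2 difference of −0.49 beside −0.11 over all entries tested. Of all 588 entries, 47 were higher and 118 lower. let-7a-5p, the relative closest in sequence, was lower by 0.48 in High (−0.48, adjusted p = 0.00124, limma), where let-7e-5p was at 0.65. After median-ratio rescaling let-7a-5p was at −0.15 (adjusted p = 0.165, limma), and 2 of the other 8 were higher and 2 lower. Of all 572 entries then tested, 80 were higher and 68 lower. Before rescaling let-7b-5p was at 0.05 (adjusted p = 0.822) and let-7c-5p at −0.04 (adjusted p = 0.839, limma). In Low against Sublow 5 of the 8 were higher and 0 lower (median 0.30, all entries 0.43), where 24.3% of all entries were higher. There let-7i-5p was higher by 0.63 and let-7e-5p by 2.41. In Sublow against Negative 7 of 8 were higher and 0 lower (median 0.79, all entries 0.37), and in High against Negative likewise 7 of 8 and 0 (median 0.71, all entries 0.57). Of all entries, 26.9% were higher in Sublow than in Negative and 43.9% in High than in Negative. After rescaling the counts of higher and lower were 0 and 1 in Low against Sublow, where the median turned to −0.10, 4 and 0 in Sublow against Negative, and 3 and 1 in High against Negative. Over all entries 11.5%, 12.2% and 32.3% were then higher in these comparisons, in the same order. let-7c-5p had the largest of the 8 differences in High against Negative, 1.06 before rescaling, where let-7e-5p had 5.55. This list was chosen with earlier results of these data known.

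miR-99b-5p held nearly all reads of its family, with 97.7 to 99.2% in High, 92.1 to 96.5% in Low, 94.3 to 97.6% in Sublow and 100% in Negative (exact permutation p = 0.0131, adjusted p = 0.0394). This call was lost when any 1 of 7 libraries was left out (High 1, High 2, Low 3, Sublow 3 or any Negative library), with an adjusted p of up to 0.0871. It was also lost with shifted entries summed in (0.116) and without the sorted libraries that list miR-295-3p (0.137). In Negative miR-99b-5p itself rests on an estimated 57.0 to 96.0 reads. A share of 100% there cannot be told apart from relatives with fewer than about 10 reads, so no conclusion on Negative is drawn from the test of miR-99b-5p. Its relative miR-99a-5p, of a paralogous cluster, was at 2.76, 5.57 and 8.46 RPM in High, 12.2, 24.5 and 10.3 in Low, 1.40, 2.43 and 1.21 in Sublow and 0 in Negative. Every Low library was above every High library. No test of it alone is given, because this miRNA reached 10 RPM only in the Low libraries and was tested only through them. The family share above departs from 100% almost only through it. miR-100-5p was listed only in High 1, at 1.12 RPM.

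In High cells miR-125a-5p was joined by another miRNA with its seed. miR-351-5p, an X-linked miRNA, was at 46.2, 50.2 and 37.0 RPM in the High libraries and is listed at 0 in the other 11. It passed the filter only through the High libraries, so no test of it alone is given. miR-125b-5p was listed only in Low 2, at 2.73 RPM. miR-125a-5p therefore held 87.3 to 89.5% of the reads with this seed in High, 98.1 to 100% in Low and 100% in Sublow and Negative (exact permutation p = 0.0182, adjusted p = 0.0409). This call was lost without High 1, High 2, Sublow 3, Negative 1 or Negative 2, at up to 0.0545. It was also lost with shifted entries summed in (0.0545), without the sorted libraries that list miR-295-3p (0.184), and with arrangements kept within replicate numbers (0.1125). In High the share fell below 100% only through miR-351-5p, so the test adds nothing to the values of that miRNA. In Negative miR-125a-5p rests on an estimated 21.0 to 76.0 reads, and 100% there cannot be told apart from relatives with fewer than about 10 reads. No conclusion is drawn from this test. The shares in the High libraries did not overlap those of any other library.

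**Figure D4:**
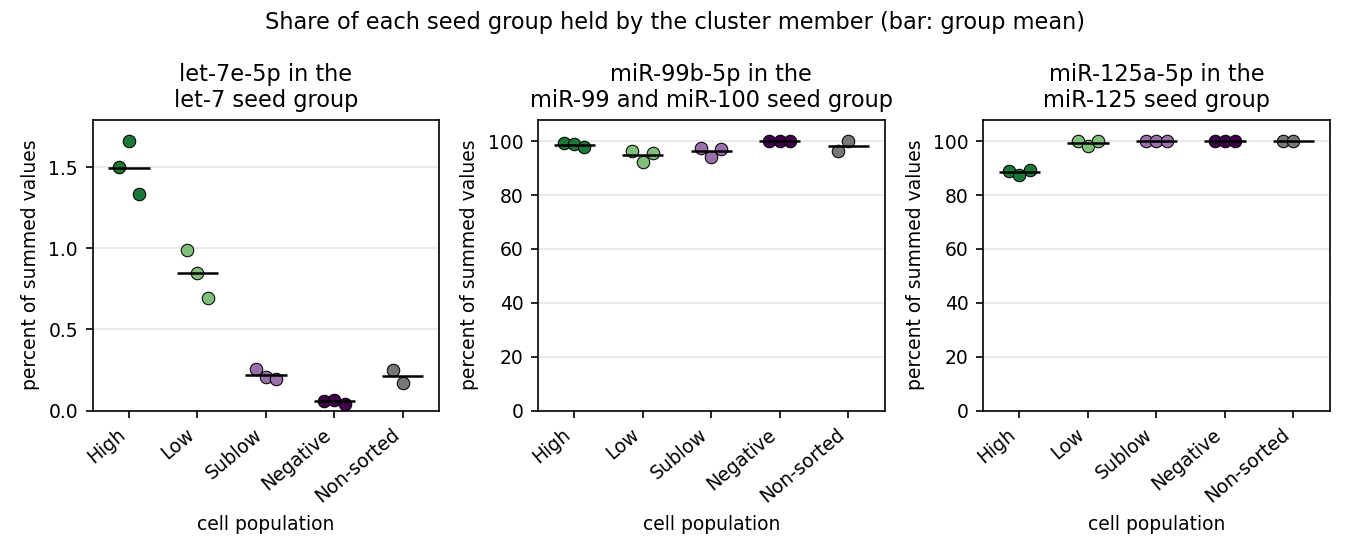
The percent of summed values that each cluster member held of the miRNAs with its seed, by library and population, with bars at the group means. All axes start at 0. let-7e-5p falls from 1.5% in High to 0.0562% in Negative, and miR-125a-5p lies at 87.3 to 89.5% in High.

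Across the 14 libraries the 5p arms of the cluster ranked between 1 and 11 among each other's closest miRNAs, and other miRNAs ran about as closely with them. Each correlation here is a Pearson r on log2(RPM + 1) over libraries that share their total and the sort, given as a description. Among 274 other annotated entries, the one most like let-7e-5p was miR-125a-5p (r = 0.99), and miR-99b-5p ranked 5 (r = 0.98). let-7e-5p ranked 1 for both miR-99b-5p and miR-125a-5p. Between these 2, miR-125a-5p ranked 2 for miR-99b-5p, but miR-99b-5p only 11 for miR-125a-5p (r = 0.96). The 3p arms were less alike to their own 5p arms, with miR-125a-3p at rank 13 for miR-125a-5p (r = 0.96) and miR-99b-3p at rank 32 for miR-99b-5p (r = 0.90).

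Among 118 miRNAs with a mean of at least 100 RPM in some population, the most like the mean of the 3 arms was miR-92b-3p (r = 0.99), a relative of the miR-17-92 cluster's miR-92a. It had 558, 530.4 and 706 RPM in High, 417, 272 and 443 in Low, 47.8, 59.1 and 49.1 in Sublow and 7.30, 6.71 and 6.92 in Negative. Next were miR-132-3p, known as a CREB-responsive miRNA of neurons (r = 0.99), miR-7a-5p, which is enriched in endocrine cells (r = 0.98), miR-1224-5p (0.97), miR-184-3p (0.97) and miR-375-3p, the most abundant miRNA of endocrine cells (0.97). The list of 10 ended with miR-7a-2-3p (0.96), miR-744-5p (0.96), miR-139-3p (0.96) and miR-181c-5p (0.95). These miRNAs did not all keep the cluster's narrow step between High and Low. miR-139-3p was higher in High by 1.92 on the log2 scale (adjusted p = 5.74e-05, limma) and miR-375-3p by 1.10 (adjusted p = 0.00413, limma), whereas miR-181c-5p was at −0.10 (adjusted p = 0.818, limma). The least alike were the entry of miR-194-5p from its hairpin copy 2 (r = −0.96), miR-215-3p (−0.95) and miR-194-1-3p (−0.94), all from hairpins of miRNAs typical of villus enterocytes. The copy 2 entry of miR-194-5p had a mean of 4421 RPM in High and 27861 in Negative, where let-7e-5p had 3034 and 64.6. The more abundant copy 1 entry had means of 6746 and 109618 RPM (r = −0.96). The 3p arm of copy 2, miR-194-2-3p, did not share this range, with means of 460 RPM in High and 539 in Negative (r = −0.29).

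**Figure D5:**
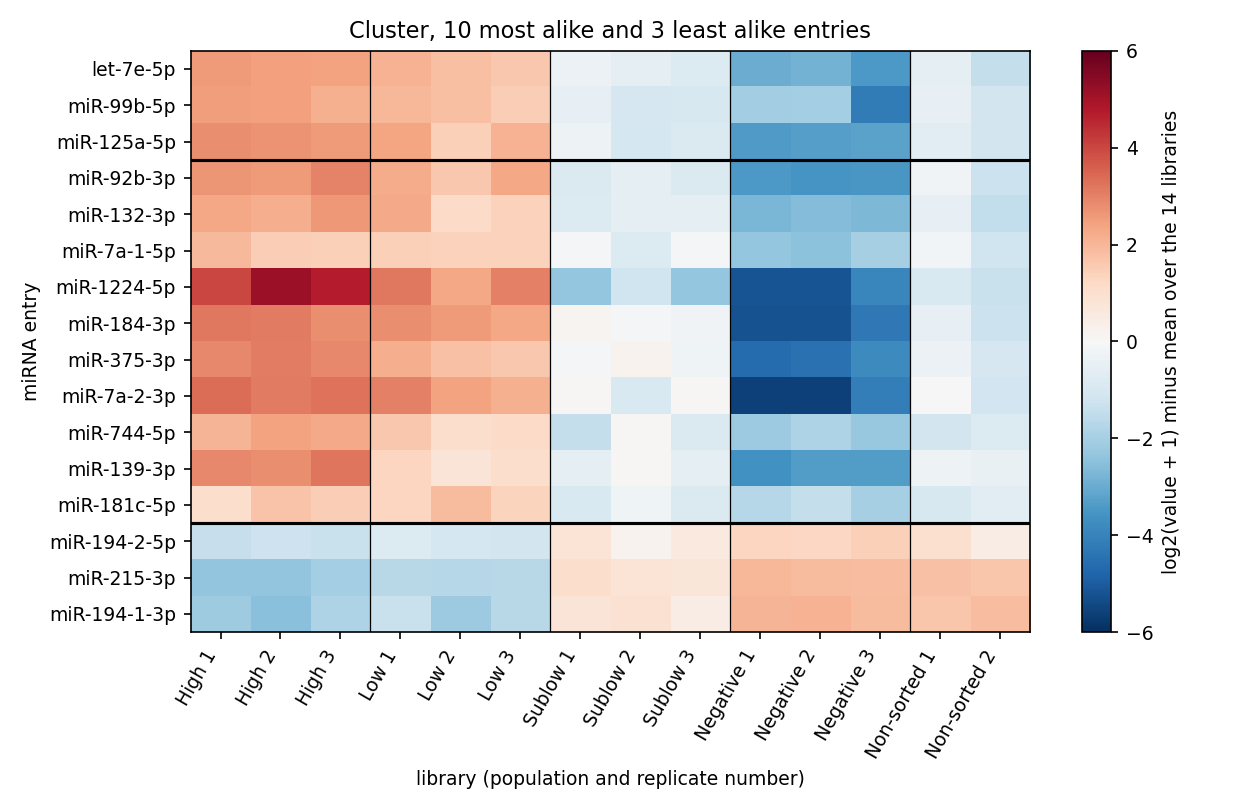
Log2(RPM + 1) minus the mean over the 14 libraries, for the 3 cluster 5p arms (top), the 10 miRNAs most like their mean (middle) and the 3 least like it (bottom), with libraries in columns. Red is above and blue below the entry's own mean. The top and middle blocks are above their means in all High and Low libraries and below in all Negative ones, and the bottom block runs the other way.

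Markers of cell types moved with the sort beside the cluster. The summed level of enteroendocrine miRNAs (6 of 6 listed: miR-375, miR-7a, miR-7b, miR-182, miR-183 and miR-96) was 187496 to 215236 RPM in High, 96739 to 120646 in Low, 34417 to 35245 in Sublow and 7057 to 8406 in Negative, the same order as the cluster. Between High and Low, miR-375, miR-182 and miR-183 did not overlap. miR-7a did (26248 to 37058 RPM in High, 25380 to 26665 in Low), as did miR-7b (7741 to 11782.5 and 7162 to 8650). miR-96-5p, at 0 to 7.06 RPM over all libraries, did not follow the order. The summed villus enterocyte miRNAs (miR-192, miR-194 and miR-215) ran in the reverse order, from 132476 to 158651 RPM in High to 530524 to 534071 in Negative. That order came from miR-215 and miR-194. miR-192-5p did not share it, at 89615 to 113889 RPM in High, 102955 to 139528 in Low, 86744 to 112808 in Sublow and 82655 to 82816 in Negative. Mesenchymal miRNAs (7 of 8 listed, mostly miR-10b-5p) were highest in Low, at 555 to 715 RPM against 299 to 369 in High, 204 to 284 in Sublow and 72.7 to 110.2 in Negative. miR-143-3p, the defining one of smooth muscle, was at no more than 53.0 RPM in any library. Haematopoietic miRNAs (5 of 5 listed, miR-146a-5p the largest) were at 459 to 469.5 RPM in High, 586 to 849 in Low, 115 to 426 in Sublow and 37.4 to 205 in Negative. The other 4 had their highest values in Low 1, at 103.1 RPM for miR-155-5p, 74.2 for miR-150-5p, 32.3 for miR-142-5p and 3.35 for the myeloid miR-223-3p. The part of these cell types in the cluster's levels was not tested.

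Lane and the miR-295-3p split gave the same order for the cluster wherever a lane or a side of the split held more than 1 population. On lane 5, let-7e-5p was at 2274 RPM in Low, 309.7 to 418 in Sublow and 49.5 in Negative. On lane 6 it was at 369.9 in Sublow, 68.4 to 75.9 in Negative and 200.4 to 360.0 in Non-sorted. In the libraries labelled Combo in place of a lane it was at 3026 to 3154 in High and 1686 to 1873 in Low. miR-125a-5p was at 274, 28.6 to 42.5 and 4.75 on lane 5, and at 25.2 in Sublow and 4.11 to 4.48 in Negative on lane 6. miR-99b-5p was at 335, 41.5 to 57.9 and 3.56 on lane 5, but on lane 6 at 40.2 in Sublow and 18.8 to 18.9 in Negative, a narrower gap.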

How the data were processed

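Small RNA libraries were made with the TriLink CleanTag kit, per the labels' protocols. The authors deposited 1 table of RPM values (miRNA reads scaled to a library total of 1e+06) for 2030 entries in 14 libraries; the submitters' processing notes name mm9, and the aligner, its mismatch allowance and the counting method are not given in the sources used. Of the values under 6 times a library's smallest, 70.6 to 85.6% were within 0.1 of a whole read, which is not nearly all, so counts were not recovered and no count model was used. limma 3.58.1 (R 4.3.3) was fitted to log2(RPM + 1), pseudocount 1, with 5 groups and a mean-variance trend, on the 588 entries that reached 10 RPM in 3 or more libraries. Tests were two-sided. The procedure was tested on simulated data. Figures used Python 3.11.15 and matplotlib 3.10.9. Alternatives changed scaling, pseudocount, filter, trend, block, lane and libraries. The members and lists were chosen with earlier results of these data known. Named are all entries of the cluster, its tested shifted entries, its seed relatives, and the 10 most and 3 least alike of the tested miRNAs. Of several hairpin copies of a mature miRNA the most abundant stands for it in families and markers, and the most (or least) alike in the ranking by likeness.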

Additional observations from a re-analysis of the deposited data

How the results depend on the processing

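No difference of the annotated 5p and 3p arms changed direction under the alternatives run. Of the shifted entries, 3 differences that had passed no test did: let-7e-5p at −1 in High against Sublow (−0.57 to 0.17) and in Non-sorted against Negative (−0.24 to 0.74), and let-7e-5p at +1 in Non-sorted against Negative (−0.53 to 2.34). Of the alternative values of the 5p arms, 614 kept their side of the threshold, 16 gained a call and 15 lost one. In High against Low let-7e-5p lost its call with no filter (0.65), no trend (0.65), a lane term (0.80), without the 7 libraries that list miR-295-3p (0.63) and with only these (0.69), and leaving out 1 library gave 0.56 to 0.77. miR-125a-5p gained a call after median-ratio rescaling (1.03), quantile normalization (0.98), a pseudocount of 10 (0.69), a lane term (0.97), shifted entries summed in (0.76) and a miR-295-3p term (0.71), with 0.44 to 0.91 when 1 library was left out. The 5p arms called in High against Low were thus 2 with rescaling, quantile normalization, a pseudocount of 10, summed entries or a miR-295-3p term, 0 with no filter, no trend, and with or without those 7 libraries alone, and 0 to 2 when 1 library was left out. miR-99b-5p in Sublow against Negative lost its call with only the 7 libraries (1.05). In Non-sorted against Negative miR-99b-5p gained one with a pseudocount of 10 (1.34), annotated entries only (1.98) and summed entries (2.01), with 1.27 to 2.33 when 1 library was left out. With summed entries the adjusted p was 0.116 for the family share of miR-99b-5p and 0.0545 for that of miR-125a-5p; without the sorted libraries that list miR-295-3p they were 0.137 and 0.184. Leaving out 1 library gave adjusted p of 0.0169 to 0.930 and 0.0291 to 0.905 for the ratios of let-7e-5p and miR-125a-5p to miR-99b-5p, 0.0105 to 0.0871 and 0.0205 to 0.0545 for the family shares of miR-99b-5p and miR-125a-5p, and 0.00468 to 0.0606, 0.0234 to 0.207 and 0.0498 to 0.207 for the shifted shares of let-7e-5p, miR-99b-5p and miR-125a-5p. The cause was not tested. Entries called higher in High than in Low over the whole table were 47, between 21 and 80 under the alternatives. The 7 libraries alone leave 1 library in 3 populations, which are assumed to vary like the rest.

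The labels do not say whether libraries of one replicate number pair, and the main fit has no term for it. Libraries of one number share a code in their column names across populations, and what the code marks is not given in the sources used here. Correlations were taken on deviations of log2(RPM + 1) from the group means. Same-numbered sorted libraries of different populations were at −0.35 to 0.78, above 0.1 in 14 of 18 pairs, and 8 of 12 libraries correlated best with their own number. Pairs of replicate 2, whose libraries all list miR-295-3p, were at 0.57 to 0.75. Those of replicate 1 with Negative were at −0.35 to −0.21. Whether the libraries pair is not settled by these values. With a replicate block miR-125a-5p gained a call in High against Low (0.71, so 2 arms called), miR-99b-5p gained one in Non-sorted against Negative (1.71), and the family share of miR-125a-5p lost its call (adjusted p = 0.1125).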

Other observations

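Some shifted entries of the cluster belong in no comparison because they are listed in few libraries. miR-125a-5p shifted by −4 was the highest of them, at 9.09 RPM in High 1, 40.8 in High 2, 5.95 in Low 2 and 8.89 in Low 3, and was listed at 0 in the other 10 libraries. In High 2 the annotated form was at 346. This entry was chosen for mention after its values were seen.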
